A study of Danio rerio with 15 samples.

Results

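The receptor for the growth factor GDNF is built from the products of the genes described here. They are ret and its co-receptor genes gfra1a, gfra1b, gfra2a and gfra3, together with the ligand gene gdnfa, as measured in pronephric ducts of zebrafish larvae. For each of the 6 symbols the RefSeq accession with the highest summed count was taken, out of 33298 accessions listed, of which 12914 had enough counts to be tested. The gene gfra1a was chosen because it was higher in mutants, so its values are a description and carry no test.

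The ducts came from larvae at 72 h post fertilization (hpf) that were homozygous for a CRISPR/Cas9 mutation in actl6a, a gene for an actin-related subunit of SWI/SNF chromatin remodeling complexes, or were siblings labelled WT. There were 8 actl6a-/- libraries and 7 sibling libraries. Per the labels' protocols, all fish came from an incross in the transgenic Na, K-ATPase alpha1A4:GFP line, whose GFP marks pronephric epithelium, collagenase was used to loosen 15 embryos per group, and pieces of duct with GFP were collected for RNA. The labels do not say whether heterozygotes were among the siblings, nor whether each library is a separate larva, so p-values measure the spread between these libraries, which may be partly technical. The mutant libraries carry one sequencing index and the sibling libraries another, so index and genotype cannot be told apart.

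RET is a receptor tyrosine kinase that does not bind its ligands alone. A ligand of the GDNF family first binds a GFRA co-receptor, a protein held on the outer cell membrane by a lipid anchor, and the pair then brings RET molecules together and switches on their kinase. GDNF prefers GFRA1, neurturin GFRA2 and artemin GFRA3. In mouse kidney development, RET and GFRA1 on the nephric duct receive GDNF from the mesenchyme beside it, which drives the outgrowth of the ureteric bud. The same receptor guides enteric neural crest cells along the gut.

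Levels are CPM (counts scaled to the same total in every library, with TMM factors), and differences are log2 fold changes of mutant over sibling from edgeR's quasi-likelihood test, with p-values adjusted by the Benjamini-Hochberg method over all 12914 accessions and a threshold of 0.05. The test called 19.2% of accessions, 13.6% higher and 5.54% lower in mutants. Total counts ran from 1583052 to 4013852 per library. A count of 0 allows up to 3 counts, or 0.742 to 2.21 CPM depending on the library. Transcript lengths were not used, so a gene is compared across libraries and not with another gene. In bulk libraries fewer cells of a type and less RNA per cell cannot be told apart. The targeted gene, actl6a, ranged from 9.87 to 38.9 CPM in mutants and from 63.8 to 93.8 CPM in siblings (log2 fold change -1.70, edgeR adjusted p = 0.000245), and all 8 mutants lay below every sibling, a pattern found in 0.736% of tested accessions.

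Markers of the duct were present in both groups. The cadherin gene cdh17 ranged from 386 to 1300.0 CPM in mutants and from 707 to 1054 CPM in siblings, and atp1a1a.4, the sodium pump gene behind the GFP reporter, from 686 to 2568 CPM in mutants and from 1085 to 1951 CPM in siblings. The duct regulator gata3 had 7 counts over all mutants and 0 in every sibling. Of the 8 duct markers tested, 1 rose and 1 fell, where 13.6% of all accessions were called higher and 5.54% lower. The first was evx1 (log2 fold change 3.44, edgeR adjusted p = 9.78e-05), with all 8 mutants above every sibling, a pattern found in 1.57% of tested accessions. With a median of 2.45 CPM in siblings, evx1 had enough counts to be tested through the mutants, so its call says little. The second was slc20a1a (-1.41, edgeR adjusted p = 0.0242). Mutant replicates 4, 5, 6 and 8 stood apart, with 25684 to 27413 accessions detected, against 18188 to 21970 in the other 4 mutants and 18841 to 23992 in siblings. They were also the deepest mutant libraries, with 2623014 to 4013852 counts, against 1583052 to 2274156 in the other mutants and 1698007 to 3084051 in siblings. The part of depth in the number detected was not tested. Their summed duct markers (10 of 14 listed were matched) were 1604 to 2017 CPM, against 3635 to 5557 CPM in the other mutants and 2806 to 4555 CPM in siblings. Sibling replicate 1 also stood apart, with 2810 CPM of erythrocyte and 1179 CPM of endothelium markers, where the highest other sibling had 267 and 150 CPM.

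Expression of ret (NM_181662.2), the gene for the kinase itself, was not called different between the groups. The 8 mutant libraries had 45.8, 37.0, 55.3, 39.8, 8.91, 23.9, 42.6 and 27.2 CPM in replicate order, and the 7 sibling libraries had 64.6, 52.9, 45.0, 43.4, 18.0, 56.7 and 34.6 CPM. The groups overlap: 7 of 8 mutants lay within the range of the siblings, and mutant replicate 5 lay below it. Means were 35.1 ± 14.5 CPM in mutants (SD, n = 8) and 45.0 ± 15.4 CPM in siblings (SD, n = 7). The log2 fold change was -0.43 (SE 0.31), with an edgeR adjusted p of 0.357. Mutant replicates 4, 5, 6 and 8 averaged 25.0 ± 12.7 CPM (SD, n = 4) and the other mutants 45.2 ± 7.68 CPM (SD, n = 4), the first also having the lower sums of duct markers. Without the first 4, the log2 fold change was -0.07 (edgeR adjusted p = 0.913). The part of duct content in the level of ret was not tested.

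The co-receptor gene gfra1a (NM_131730.1) was the member picked for its rise. Mutant libraries had 9.60, 15.4, 14.1, 23.3, 25.7, 12.8, 15.9 and 14.5 CPM, and sibling libraries had 2.10, 1.04, 2.17, 1.25, 2.66, 3.91 and 1.51 CPM. The groups do not overlap, and the lowest mutant, replicate 1, was above the highest sibling, replicate 6. Across all tested accessions, 1.57% had every mutant above every sibling. The means were 16.4 ± 5.38 CPM in mutants (SD, n = 8) and 2.09 ± 0.984 CPM in siblings (SD, n = 7), a ratio of 7.84, and the fitted log2 fold change was 3.02 (SE 0.31).

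These levels rest on few counts. The gfra1a accession had 13 to 95 counts in mutants and 2 to 8 in siblings, 365 and 31 in all, so that single sibling levels are near the floor of 3 counts. After every library was thinned to the total of the smallest, mutants kept 13 to 45 counts (median 23) and siblings 1 to 6 (median 3). The 4 mutants with fewer detected accessions, replicates 1, 2, 3 and 7, had 9.60 to 15.9 CPM, with a mean of 13.7 ± 2.86 CPM (SD, n = 4), so all 4 were above every sibling. Replicates 4, 5, 6 and 8 had 12.8 to 25.7 CPM, a range that overlaps with theirs.

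**Figure D1:**
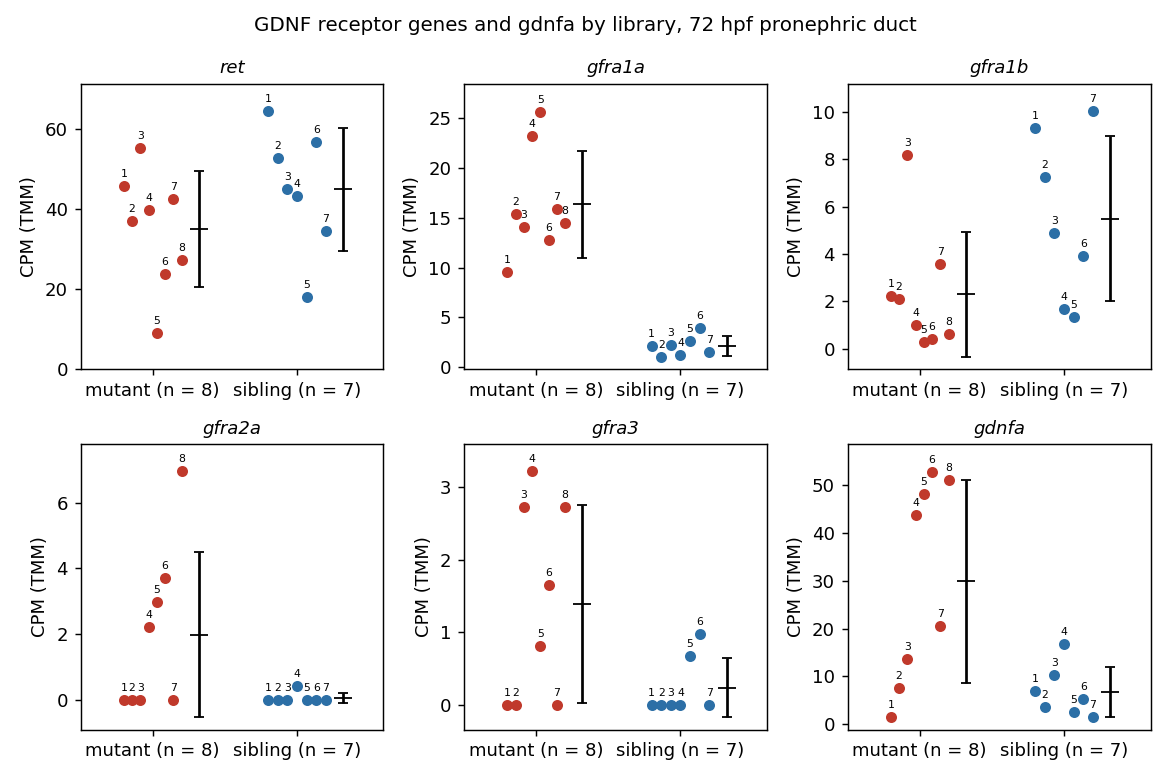
Levels of the 6 genes in each library, in CPM with TMM scaling on linear axes that differ between panels; points are libraries, mutants at left and siblings at right, with the mean and SD of each group. The gfra1a groups do not overlap (9.60 to 25.7 CPM in mutants, 1.04 to 3.91 CPM in siblings), those of ret overlap nearly throughout, and gdnfa is high in mutant replicates 4, 5, 6 and 8.

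Its paralog gfra1b (NM_131731.1) ran the other way in several libraries. Mutant libraries had 2.21, 2.09, 8.16, 0.990, 0.270, 0.411, 3.59 and 0.605 CPM, and sibling libraries had 9.32, 7.25, 4.88, 1.67, 1.33, 3.91 and 10.0 CPM. Mutant replicates 4, 5, 6 and 8 lay below every sibling, and the other 4 mutants lay within the range of the siblings. The accession had 39 counts over all mutants and 88 over all siblings, and failed the filter on low counts. In a fit that kept every accession with a count, its log2 fold change was -1.63 (SE 0.58), with an edgeR adjusted p of 0.0598. It passed the filter in the fit without mutant replicates 4, 5, 6 and 8, with a value of -0.43 (edgeR adjusted p = 0.704). The difference was thus not called in either fit, and the fits differ in the filter as well as in the libraries. Mean levels were 0.569 CPM in those 4 mutants, 4.02 CPM in the other mutants and 5.49 CPM in siblings.

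Zebrafish carry both paralogs where mammals have a single GFRA1 gene, so the split of the counts between gfra1a and gfra1b was also described. The gfra1a accession held 81.2, 88.0, 63.3, 95.9, 99.0, 96.9, 81.6 and 96% of their joint counts in mutant replicates 1 to 8, and 18.4, 12.5, 30.8, 42.9, 66.7, 50 and 13.0% in sibling replicates 1 to 7. The mean share was 87.7 ± 12.1% in mutants (SD, n = 8) and 33.5 ± 20.6% in siblings (SD, n = 7). In all 8 mutants gfra1a held most of the joint counts, and in 5 of 7 siblings gfra1b did. Transcript lengths were not used, so the shares are compared between libraries and do not rank the paralogs by transcript level. A single pair of libraries crosses: mutant replicate 3 at 63.3% (exact Clopper-Pearson 95% interval 48.3 to 76.6%) and sibling replicate 5 at 66.7%, which is 4 of 6 counts (interval 22.3 to 95.7%). The share contains the measure that chose gfra1a, and was not tested. How reads that match both paralogs were assigned is not given in the sources used here.

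**Figure D2:**
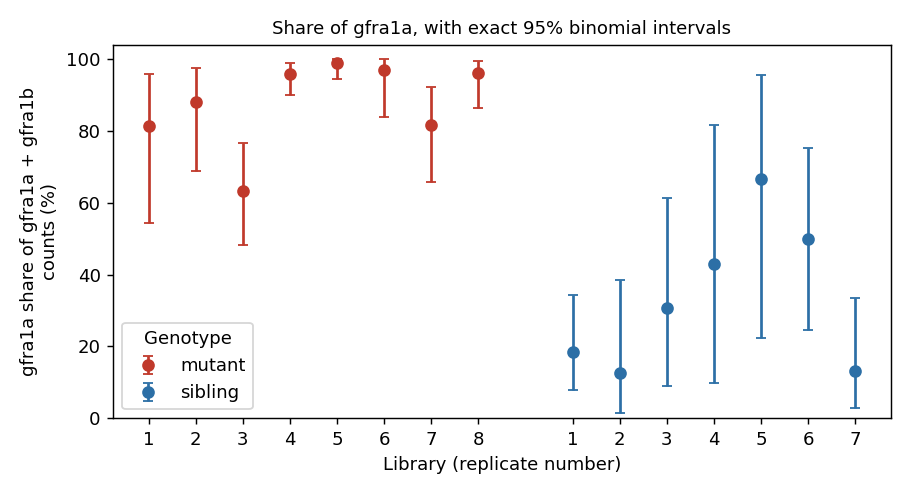
Share of the joint gfra1a and gfra1b counts that the gfra1a accession held in each library, in percent, mutants at left and siblings at right; vertical bars are exact Clopper-Pearson 95% intervals, which cover counting error only. Mutants lie between 63.3 and 99.0% and siblings between 12.5 and 66.7%.

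The 2 remaining co-receptor genes had few counts. The neurturin co-receptor gene gfra2a (NM_001017996.1) had 9, 11, 9 and 23 counts in mutant replicates 4, 5, 6 and 8, which is 2.23, 2.97, 3.70 and 6.96 CPM. It had 0 counts in the other 4 mutants. Of the siblings, replicate 4 had 1 count and the other 6 had 0. The artemin co-receptor gene gfra3 (NM_001256636.1) had 0, 0, 6, 13, 3, 4, 0 and 9 counts in mutants and 0, 0, 0, 0, 1, 2 and 0 counts in siblings. Both genes failed the filter on low counts. They are therefore described by their counts, without a test. Fitted folds are not given because the siblings lay at or under the floor. Counts of gfra2a came from the 4 libraries with the most detected accessions, and without them no count of gfra2a was left in the mutants.

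The ligand gene gdnfa (NM_131732.2) rose in mutants, and unevenly. Mutant libraries had 1.48, 7.68, 13.6, 43.8, 48.1, 52.7, 20.5 and 51.1 CPM, and sibling libraries had 6.92, 3.63, 10.3, 16.7, 2.66, 5.38 and 1.51 CPM. Replicates 4, 5, 6, 7 and 8 of the mutants were above every sibling, replicates 2 and 3 lay within the range of the siblings, and replicate 1 lay below it. The means were 29.9 ± 21.2 CPM in mutants (SD, n = 8) and 6.73 ± 5.28 CPM in siblings (SD, n = 7), and the log2 fold change was 2.20, with an SE of 0.55 and an edgeR adjusted p of 0.0113.

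The call rests on the 4 mutants that stood apart. Replicates 4, 5, 6 and 8 averaged 48.9 ± 3.91 CPM (SD, n = 4) and the other mutants 10.8 ± 8.15 CPM (SD, n = 4). Without the first 4, the log2 fold change of gdnfa was 0.68 (edgeR adjusted p = 0.539). With the number of detected accessions as a term it was 0.78 (edgeR adjusted p = 0.295).

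GDNF is made by mesenchyme and smooth muscle in many organs. Among the mutants, the summed markers of those cells followed the same order as gdnfa, and among the siblings they did not. The summed level of the list (13 of 14 matched) was 173, 319, 544, 1358, 1486, 1594, 1048 and 1589 CPM in mutant replicates 1 to 8. In sibling replicates 1 to 7 it was 629, 24.4, 86.8, 122, 194, 24.0 and 96.3 CPM. Sibling replicate 1, with the highest of these sums, had 6.92 CPM of gdnfa. Sibling replicate 4, with the most gdnfa at 16.7 CPM, had a sum of 122 CPM. The same 5 mutants that had gdnfa above every sibling had mesenchyme sums above every sibling. Of the list, 8 were tested and 6 rose, where 13.6% of all accessions were called higher. Among the 6 were the mesenchymal regulator foxf1 (log2 fold change 4.82, edgeR adjusted p = 0.000282) and the smooth muscle actin gene acta2 (3.34, edgeR adjusted p = 0.00367). A single library held 42 of 46 sibling counts of foxf1 and 256 of 297 of acta2. It also held 17 of 18 sibling counts of foxf2a and 81 of 96 of pdgfra, which were also among the 6. These 4 genes passed the filter on low counts through the mutants, so their calls say little. Not called were twist1a (1.11, edgeR adjusted p = 0.154) and dcn (1.00, edgeR adjusted p = 0.383). The smooth muscle desmin gene desmb was at 0 in every sibling and at up to 36.6 CPM in mutants. The part of mesenchyme RNA in the levels of gdnfa and gfra1a was not tested.

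**Figure D3:**
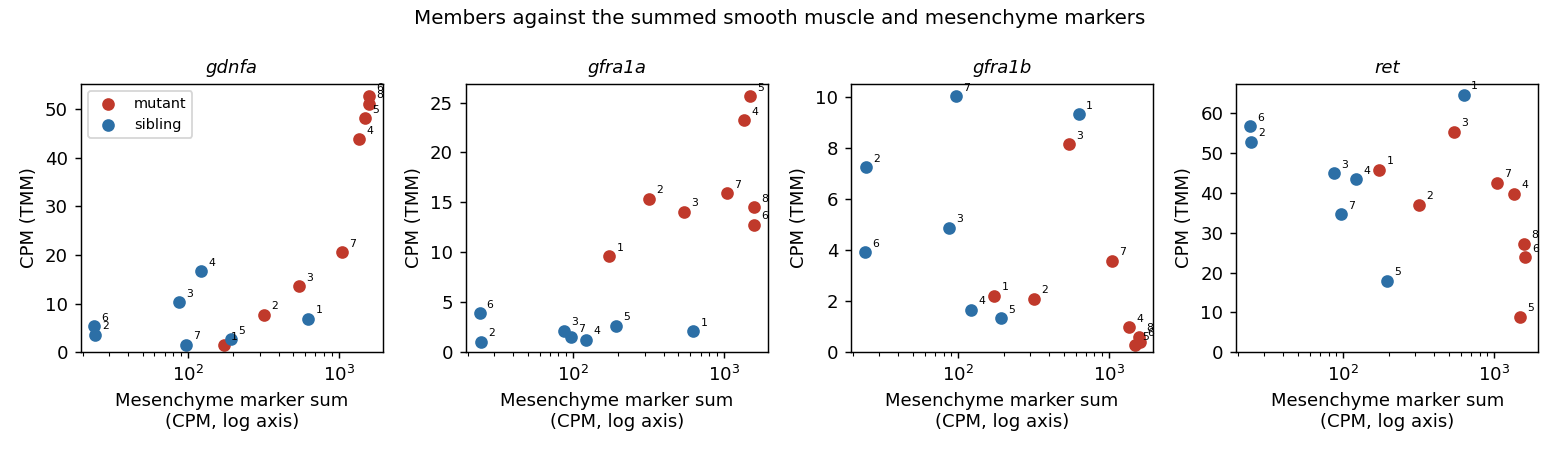
Levels of gdnfa, gfra1a, gfra1b and ret (CPM with TMM scaling, linear axis) against the summed CPM of smooth muscle and mesenchyme markers (log axis); points are libraries, coloured by genotype and numbered by replicate. Mutants 4, 5, 6 and 8 have both high marker sums and high gdnfa.

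Because ret and gfra genes are also known from nerve and gut, markers of other tissues were summed. Enteric neural crest and neuron markers (17 of 20 matched) summed to 60.5 to 626 CPM in mutants and 17.6 to 235 CPM in siblings, and 5 of 8 mutants were above every sibling. The defining gene phox2bb ran from 0 to 60.4 CPM in mutants and from 0 to 43.9 CPM in siblings. Of the list, chata was at 0 in all mutants, with 3 counts over all siblings. The genes vipb, elavl4 and prph were at 0 in all siblings, with 32, 2 and 3 counts over all mutants. The 2 tested members of the list both rose, where 13.6% of all accessions were called higher. They are the transcription factor genes hand2 (log2 fold change 3.59, edgeR adjusted p = 0.00355), which smooth muscle and other mesoderm also express, and ascl1a (2.31, edgeR adjusted p = 0.00192). Much of the rise of the sum lay in hand2 (means of 154 CPM in mutants and 10.5 CPM in siblings) and ascl1a (110 and 22.0 CPM). Of 227 sibling counts of hand2, 202 were in a single library. It thus passed the filter on low counts through the mutants, and its call says little. The crest gene crestin (3.18 and 3.03 CPM) did not follow. For foxd3 the means were 9.30 and 18.9 CPM, with up to 70.1 CPM in a sibling. Its medians ran the other way, at 4.47 CPM in mutants and 2.71 CPM in siblings. For sox10 (14.4 and 6.66 CPM) all 8 mutants lay within the sibling range. However, a single library held 131 of 147 sibling counts of sox10. Its medians were 4.55 CPM in mutants and 0.502 CPM in siblings. Intestinal epithelium markers (15 of 15 matched) summed to 1612 to 4543 CPM in mutants and 1088 to 1866 CPM in siblings, with 6 of 8 mutants above every sibling. The list includes cdh17, also used above as a duct marker, with means of 736 CPM in mutants and 899 CPM in siblings. Much of the sibling sum is thus not particular to gut. On the same list, the intestinal regulator cdx1b ran from 25.1 to 248 CPM in mutants and from 0 to 2.71 CPM in siblings. Every mutant lay above every sibling, a pattern found in 1.57% of tested accessions. With 8 counts over all siblings, cdx1b passed the filter on low counts through the mutants, so this separation says little. Epidermis markers summed to 2338 to 14108 CPM in mutants and 522 to 2804 CPM in siblings, and erythrocyte markers to 683 to 5729 CPM in mutants and 226 to 2810 CPM in siblings. Endothelium markers summed to 190 to 1786 CPM in mutants and 82.2 to 1179 CPM in siblings. Skeletal muscle markers summed to 494 to 3920 CPM in mutants and 640 to 14116 CPM in siblings, those of sensory and motor neurons to 14.0 to 68.5 CPM in mutants and 13.0 to 38.6 CPM in siblings, and those of glia to 41.6 to 116 CPM in mutants and 62.2 to 133 CPM in siblings. The part of any of these tissues in the levels of the receptor genes was not tested.

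Beyond the 6 genes, 97 genes that act with, below or above RET were listed. Of these, 74 were matched to an accession with counts and 48 were tested. Of the 48, 17 rose in mutants (35.4%, against 13.6% of all accessions), 2 fell (4.17%, against 5.54%) and 29 were not called. Means below are given with the SD over 8 mutants and 7 siblings. The median log2 fold change of the 48 was 0.37, against 0.04 over all tested accessions. Without mutant replicates 4, 5, 6 and 8, 4 genes rose and 1 fell. Calls over all accessions dropped as well in that fit, from 1761 to 378 higher and from 715 to 133 lower. Leaving out any 1 of those 4 mutants gave 10 pathway genes that rose, and leaving out sibling replicate 2, 3 or 5 gave 11. Over all accessions, fits without 1 library called 1075 to 2064 higher.

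Among the other ligands and co-receptors, 7 of 12 were matched and 2 tested. The second GFRA2 gene, gfra2b, rose, with 17.7 ± 16.0 CPM in mutants and 3.35 ± 3.39 CPM in siblings (log2 fold change 2.27, SE 0.69, edgeR adjusted p = 0.0279). Its high libraries were not those of gfra2a and gdnfa: mutant replicates 1, 2, 3 and 7 had 13.3 to 50.2 CPM, replicates 4, 5, 6 and 8 had 2.97 to 9.40 CPM, and siblings had 0 to 9.03 CPM. Without mutant replicates 4, 5, 6 and 8 its log2 fold change was 3.10 (edgeR adjusted p = 0.00544). The call was lost when any 1 of sibling replicates 1 to 5 was left out (edgeR adjusted p 0.0530 to 0.0669). It was also lost with limma (1.73, limma adjusted p = 0.0731) and with edgeR without bias adjustment (2.39, edgeR adjusted p = 0.0520). In all, 7 of 28 alternatives lost it. The stress cytokine gene gdf15, whose product signals through RET with the co-receptor GFRAL, was not called (log2 fold change -0.33, edgeR adjusted p = 0.499). The other GDNF gene, gdnfb, and the neurturin gene nrtn failed the filter, with 26 and 29 counts over all mutants and 18 and 5 over all siblings.

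Of the adaptors and enzymes that carry the signal from RET, 19 were tested, 5 rose and 1 fell. These are 26.3% higher and 5.26% lower, against 13.6% and 5.54% of all accessions. The docking protein gene dok4, whose product binds phosphorylated RET, had 13.8 ± 9.78 CPM in mutants and 0.427 ± 0.605 CPM in siblings (edgeR adjusted p = 0.000105). All 8 mutants were above every sibling, as in 1.57% of tested accessions. The siblings had 7 counts of dok4 in all, so the fitted log2 fold change of 4.92 depends on the prior count. The adaptor gene grb7 had 21.0 ± 9.50 CPM in mutants and 4.57 ± 2.96 CPM in siblings (log2 fold change 2.30, SE 0.41, edgeR adjusted p = 0.00107). The kinase gene map2k1, which encodes MEK1 of the ERK cascade, rose by 1.00 on the log2 scale (SE 0.22, edgeR adjusted p = 0.00517). The small GTPase gene hrasa fell by 0.62 (SE 0.18, edgeR adjusted p = 0.0239), with 54.7 ± 8.13 CPM in mutants and 83.7 ± 28.0 CPM in siblings. The members with the highest mean CPM were not called. They were kras, another Ras gene (0.15, edgeR adjusted p = 0.405), and the phosphatase gene ptpn11a, which encodes SHP2 (-0.25, edgeR adjusted p = 0.204). Leaving out mutant replicate 1, which had 142 CPM of ptpn11a, made that gene a call (-0.38, edgeR adjusted p = 0.0309).

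Feedback inhibitors and heparan sulfatases gave 1 rise among 7 tested (14.3%, near the 13.6% of all accessions called higher). It was spred2a, an inhibitor of the Ras to ERK step, with 1.42 (SE 0.37, edgeR adjusted p = 0.0138), while its paralog spred2b was not called (-0.09, edgeR adjusted p = 0.696). The ERK phosphatase gene dusp6, a common readout of ERK signaling, had 101 ± 35.5 CPM in mutants and 63.8 ± 18.8 CPM in siblings and missed the threshold (log2 fold change 0.69, SE 0.24, edgeR adjusted p = 0.0564). It was past the threshold in 4 of 28 alternatives and not called in the other 24. The 4 include limma (adjusted p = 0.00827) and edgeR on totals of low-count accessions (adjusted p = 0.0399). Apart from fits without 1 library, its log2 fold change ranged from 0.27 to 0.80 over the alternatives.

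A list of genes that act in the mouse ureteric bud or its mesenchyme had 5 of 7 tested members higher (71.4%, against 13.6% of all accessions) and a median log2 fold change of 1.76, against 0.04. Of the named members, sox9a and etv4 lost their calls without mutant replicates 4, 5, 6 and 8. Those libraries had the highest mesenchyme sums, the lowest duct sums and the most detected accessions. The part of each in these calls was not tested. The transcription factor gene sox8b had 11.5 ± 3.31 CPM in mutants and 2.49 ± 1.15 CPM in siblings (log2 fold change 2.16, SE 0.32, edgeR adjusted p = 0.000179). All 8 mutants were above every sibling, as in 1.57% of tested accessions. The kinesin family gene kif26ba, whose mouse counterpart acts in kidney mesenchyme, had 75.8 ± 30.8 CPM in mutants and 23.0 ± 6.04 CPM in siblings (1.76, SE 0.28, edgeR adjusted p = 0.000621). The SOX factor gene sox9a rose by 1.79 (SE 0.46, edgeR adjusted p = 0.0126). The ETS factor gene etv4, which lies below RET in the mouse bud, had 52.1 ± 31.2 CPM in mutants and 11.8 ± 13.2 CPM in siblings (2.06, SE 0.56, edgeR adjusted p = 0.0178). Sibling replicate 1, which had the highest erythrocyte, endothelium and mesenchyme sums of the siblings, had 39.7 CPM of etv4. The chemokine receptor gene cxcr4b (0.21, edgeR adjusted p = 0.721) and the ligand gene wnt11 (0.28, edgeR adjusted p = 0.659), a RET target at mouse bud tips, were not called.

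Among regulators of the duct, of RET or of GDNF, 13 were tested, 5 rose and 1 fell. That is 38.5% higher and 7.69% lower, against 13.6% and 5.54% of all accessions. The zinc finger gene sall4 rose by 2.29 (SE 0.52, edgeR adjusted p = 0.00693). The retinoic acid receptor gene raraa rose by 2.06 (SE 0.51, edgeR adjusted p = 0.0113), and aldh1a2, whose product makes retinoic acid, by 2.44 (SE 0.75, edgeR adjusted p = 0.0314). The call of aldh1a2 was lost when any 1 of mutant replicates 4, 5, 6 and 8 or sibling replicates 2, 3, 5, 6 and 7 was left out (edgeR adjusted p 0.0581 to 0.0686). The homeobox gene emx2, needed in the mouse ureteric bud, fell by 1.14 (SE 0.29, edgeR adjusted p = 0.0131), with 28.3 ± 13.7 CPM in mutants and 57.4 ± 17.3 CPM in siblings. The duct and kidney regulators hnf1bb (-0.17, SE 0.22, edgeR adjusted p = 0.611) and hnf1ba (0.07, SE 0.90, edgeR adjusted p = 0.963) were not called. Levels of hnf1ba ran from 0.247 to 353 CPM in mutants and from 0.301 to 278 CPM in siblings, so its value is poorly determined. One alternative, 1 of 28, put hnf1bb past the threshold.

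The pathway calls differed in how far they held. The calls of dok4, grb7, sox8b and kif26ba were kept under every alternative in which each gene was tested. For dok4 these were only 18 of 28 alternatives, and 8 of 15 fits without 1 library. With 7 counts over all siblings, dok4 passed the filter on low counts through the mutants alone, so its kept calls say little. The same holds for sox8b, which had at most 9 counts and 3.42 CPM in a sibling and at least 6.35 CPM in every mutant. It also holds for grb7, with 1 to 14 counts and a median of 4.34 CPM in siblings and at least 7.38 CPM in every mutant. The calls of map2k1, hrasa, spred2a, sox9a, etv4, sall4, raraa, emx2 and aldh1a2 were lost without mutant replicates 4, 5, 6 and 8. They were also lost with all libraries and either the number of detected accessions or the summed erythrocyte and endothelium share as a term. Without those 4 libraries the log2 fold changes of the kept genes were 2.29 for grb7, 1.98 for sox8b and 1.1 for kif26ba. Those of the lost genes were 0.69 for map2k1, 0.57 for spred2a, 0.84 for sox9a, 0.99 for etv4, 1.12 for sall4, 0.79 for raraa, -0.66 for emx2 and 0.72 for aldh1a2. For hrasa the value was -0.52 (SE 0.23), against -0.62 (SE 0.18) with all libraries. The gene dok4 was not tested in that fit.

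**Figure D4:**
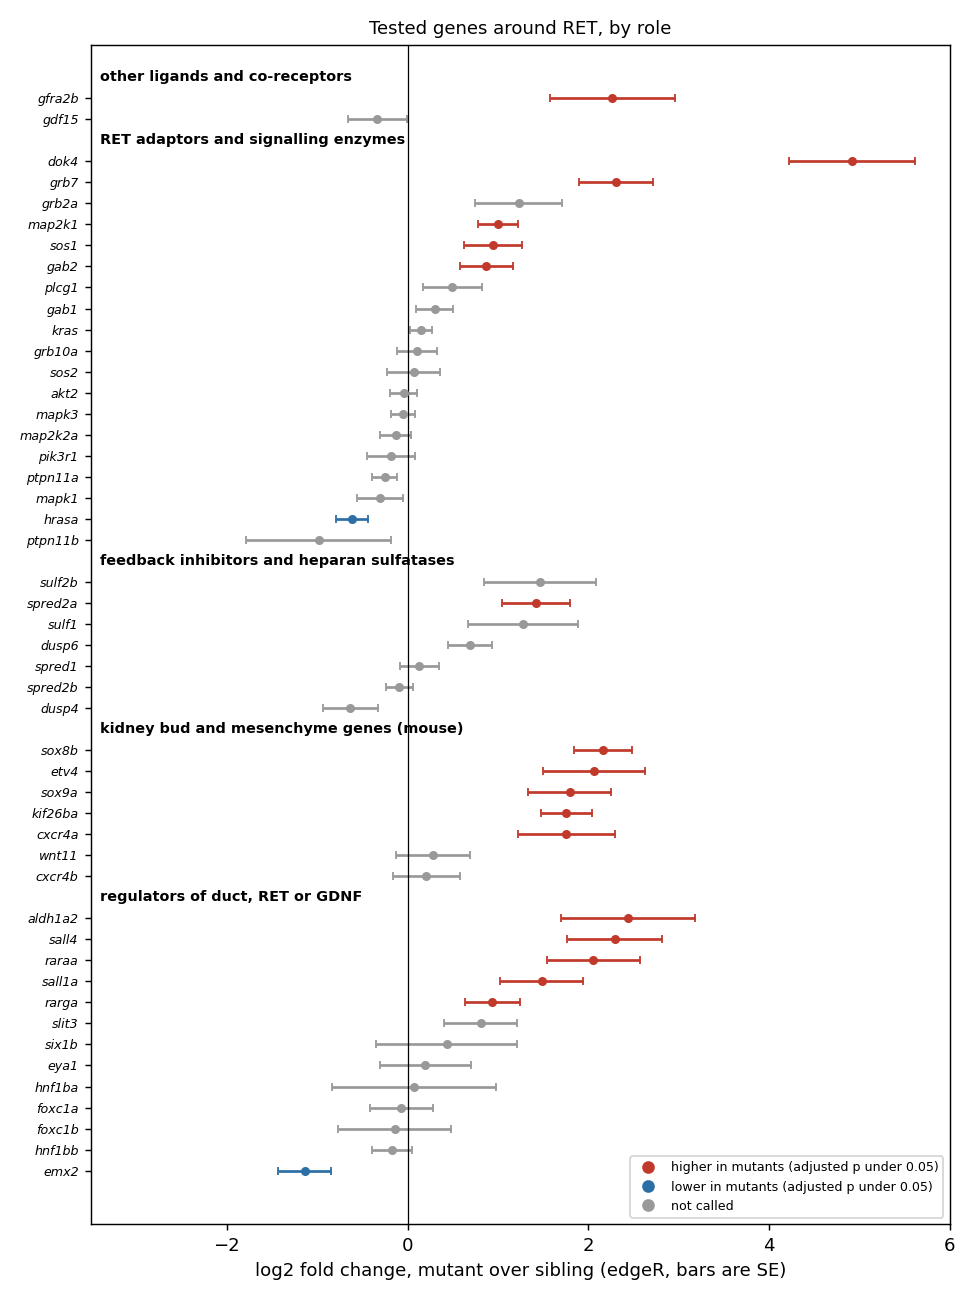
Log2 fold changes, mutant over sibling, with SE bars for the pathway genes that were tested, grouped by role; colour marks genes past an adjusted p of 0.05 over all accessions. The list of bud and mesenchyme genes has 5 of 7 points past the threshold, all higher in mutants, and dok4 has the highest value shown at 4.92.

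The genes whose log2 CPM most resembled that of gfra1a over the 15 libraries, by Pearson correlation, were s100a10a (0.957), sult3st4 (0.953), cdx1b (0.951), sfrp5 (0.950) and zgc:136410 (0.947). These values are set largely by the difference between the groups, which gfra1a was chosen for. After the mean of each group was subtracted, the closest were ptar1 (0.847), dusp6 (0.814), trim35-7 (0.787), oxr1a (0.782) and ampd2a (0.780). For ret, the same 5 genes led both ways: btbd6b (0.817 over the libraries, 0.807 after subtraction), lrr1 (0.805 and 0.796), zgc:101772 (0.798 and 0.801), tmco1 (0.796 and 0.783) and si:dkeyp-104h9.5 (0.791 and 0.786). All points share library, depth and sequencing index with their group.

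The tested genes on either side of gfra1a and ret in the order of a RefSeq gene table were also read. Beside gfra1a, emx2 fell as given above and tspan14, a tetraspanin gene, rose by 0.89 (SE 0.24, edgeR adjusted p = 0.0160), with 90.5 ± 26.7 CPM in mutants and 48.5 ± 19.2 CPM in siblings. The other 4 neighbours, selenou1a, sfxn3, elovl6l and chchd1, were not called, with log2 fold changes of -0.50 to 0.16. Of all tested accessions, 19.2% were called in either direction. None of the 6 neighbours of ret was called (bag3, inpp5f, sec23ip, pcbd1, pdlim1 and rel), with edgeR adjusted p of 0.0577 to 0.891.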

How the data were processed

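RNA-seq counts of 15 libraries were used, 8 mutant and 7 sibling. For each RefSeq accession the authors deposited raw whole-number counts, split over 2 tables that per the file headers hold 1 sequencing index each. The submitters' processing notes name cutadapt, FastQC, STAR, featureCounts and edgeR, and the build GRCz11, without versions. It is not given in the sources used here if counts are reads or molecules, so intervals and floors cover counting error only. An accession listed in only 1 table was given 0 in the other. Symbols came from a RefSeq table of GRCz12tu, used for names and gene order: 20452 of 33298 accessions (61.4%) matched with the version ignored, holding 87.6% of counts.

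Counts were tested with edgeR 4.0.16 in R 4.3.3: TMM factors (0.867 to 1.12), filterByExpr by group, robust quasi-likelihood fits with bias adjustment and genotype as the only term, after a check on simulated data. SE was derived from the fold change and the F statistic. Log2 CPM used a prior count of 2, and genes of at least 5 CPM entered the correlations. Alternatives used DESeq2 1.42.0 and limma 3.58.1; shares used scipy 1.17.1. Within groups, 49 pairs of libraries had a chi-square per degree of freedom of 8.39 to 39.3, so none matched within sampling noise.

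The members and lists were chosen with earlier results of these data known. The text names the 6 members and actl6a, the called genes of each pathway role (at most 4, smallest p first) with the 2 of highest mean CPM, the 5 nearest genes by correlation, and markers at 0 or of high level. The markers evx1, slc20a1a, foxf1, acta2, twist1a, dcn, hand2, ascl1a, cdx1b and phox2bb, the neighbours and gdnfb and nrtn were named after their values were seen. The same holds for the markers foxf2a, pdgfra, foxd3, crestin and sox10.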

Additional observations from a re-analysis of the deposited data

Results flagged for a closer look

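Among 62 sets of values (a gene in 1 group), 9 had a library far from the others by Dixon's 95% criterion, where chance gives about 1 in 20, or 3.1. In mutants these were replicate 3 for gfra1b at 8.16 CPM, replicate 1 for kras at 228 CPM and for ptpn11a at 142 CPM, and replicate 8 for sox9a at 46.0 CPM. In siblings they were replicate 4 for gfra2a at 0.417 CPM, which is 1 count, and replicate 7 for sox8b at 0 CPM. Sibling replicate 1 was far above the other siblings for etv4 at 39.7 CPM, raraa at 33.1 CPM and aldh1a2 at 77.0 CPM. That library also had the highest erythrocyte, endothelium and mesenchyme sums of the siblings. Without it, the log2 fold changes were 2.91 for etv4, 2.81 for raraa and 3.67 for aldh1a2 (edgeR adjusted p 0.00207, 0.00137 and 0.00366).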

How the results depend on the processing

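Over 28 alternatives, ret was never called (log2 fold change -0.83 to -0.07), gfra1a ranged from 2.67 to 3.18, and actl6a kept its call. The gdnfa value was 1.95 to 2.57 without any 1 library. It lost its call with a replicate block (1.79, adjusted p = 0.0510), detected accessions as a term (0.78), the summed erythrocyte and endothelium share (blood and vessel share) as a term (1.12), and without mutant replicates 4, 5, 6 and 8 (0.68). Without these 4, gfra2a in mutants minus siblings was -0.0596 CPM; without 1 library it was 1.21 to 2.21 CPM, and gfra3 was 0.894 to 1.35 CPM. Same-numbered libraries correlated at -0.54 to 0.26 and only replicates 3 and 7 matched their own number best, so numbers do not pair the libraries; the block, over 7 pairs without mutant replicate 8, gave 768 higher and 329 lower accessions and 6 and 1 pathway genes.

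Calls over all accessions (1761 higher, 715 lower) became 3017 higher with no filter, which moved the median of all genes by 0.33, 3081 and 2485 with limma, 895 and 386 with detected accessions, 781 and 221 with the blood and vessel share, 378 and 133 without the 4 mutants, 832 and 199 at a threshold of 0.01, and 446 lower without bias adjustment. Leaving out 1 library gave 1075 to 2064 higher and 546 to 1417 lower. Pathway calls (17 and 2) became 5 and 0 with detected accessions, 5 and 0 with the blood and vessel share, 4 and 1 without the 4 mutants, 6 and 0 at 0.01, 9 higher without bias adjustment and 6 lower with limma; leaving out 1 library gave 10 to 19 higher and 2 to 3 lower. The cause was not tested.

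Genes that were not called turned their sign: gdf15 to 0.33 (blood and vessel share) and 0.046 (without the 4 mutants), ptpn11a to 0.038 and wnt11 to -0.20 (blood and vessel share), wnt11 to -0.20 and hnf1bb to 0.20 (detected accessions), hnf1bb to 0.25 (blood and vessel share) and 0.21 (without the 4 mutants), spred2b to 0.027 (limma), and hnf1ba to -0.0016 (no filter), -1.67 (limma) and -0.0105 (low-count totals). Without 1 library, cxcr4b ranged from -0.0096 to 0.43 and hnf1ba ranged from -0.21 to 0.24. The low-count totals, thinning and the fit without bias adjustment were chosen after seeing the data. Summing the accessions of a symbol was not run for counts of calls. Depth limits gfra1b, gfra2a, gfra3 and the sibling level of gfra1a, which lie near 3 counts.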
